A study of Mus musculus with 6 samples.

Results

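Mouse embryonic stem cells that made DGCR8 with the E518K substitution were compared with cells that made the wild-type protein, gene by gene, in poly(A)-selected RNA. The comparison used 4 of the 6 libraries of the series, namely wt clones 12 and 16 and E518K clones 8 and 15. The other 2 libraries came from DGCR8-null (KO) cells and did not enter the fit. Of 21978 entries of the count table, 16021 had enough reads to be tested.

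The wt cells had been transfected with pSB ET iE-FlagDGCR8-wt together with pCMV(CAT)-SB100X, and their genotype label is DGCR8 wt/wt. The E518K cells had received pSB ET iE-FlagDGCR8-E518K with the same pCMV(CAT)-SB100X plasmid, and their genotype label is DGCR8 E518K/E518K. Both groups carry the strain label NBA1-19349, grew without feeder cells in medium with LIF and the 2i inhibitors CHIR99021 (of GSK3) and PD0325901 (of MEK), and were given doxycycline at 300 ng/mL for 48 h. Each library is 1 clone, and the series' design text calls the clones of a condition independent. Whether these clones descend from the KO line, and whether they keep an endogenous Dgcr8 allele, is stated by none of the labels. The series title connects the mutation with Wilms tumours and with a partial defect in miRNA processing, so the comparison asks which mRNAs differ when the mutant protein takes the place of the wild type.

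DGCR8 binds the stem of primary miRNA transcripts and, together with the nuclease Drosha, forms the Microprocessor, which cuts out the precursor hairpins. Dicer then trims the hairpins to mature miRNAs, which guide Argonaute proteins to mRNAs through bases 2 to 8, the seed. In mouse embryonic stem cells the miR-290 cluster supplies many of the most abundant miRNAs, and its members act on inhibitors of the cell cycle.

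The clones were not matched in Dgcr8 itself. Dgcr8 (chromosome 16, 18253948 to 18289246, minus strand, GRCm38) had 14174 and 73388 counts in wt clones 12 and 16, and 59117 and 30638 counts in E518K clones 8 and 15. The 2 KO libraries had 3090 and 2860. In CPM, which are counts scaled to equal library size, the levels were 191 and 969 for wt and 807 and 413 for E518K, so both E518K clones lay between the wt clones. The log2 fold change of E518K over wt was 0.07 ± 0.78 (SE), with an edgeR adjusted p of 0.959. It turned to -0.66 without wt clone 12 and to -0.50 without E518K clone 8, and rose to 1.68 without wt clone 16. The span overlaps Trmt2a and the counts do not separate the vector's transcript from an endogenous one. Library totals ranged from 73642784 to 75121971 counts in the 6 libraries. Transcripts of the mitochondrial genome made up 3.24% and 3.23% of counts in wt and 3.80% and 3.56% in E518K.

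E518K and wt cells differed in 1999 genes (12.5% of those tested) at an adjusted p under 0.05 in edgeR's quasi-likelihood test, which is what "called" means below. Of these, 933 (5.82%) were higher and 1066 (6.65%) lower in E518K, and 773 differed at least 2-fold (241 higher and 532 lower). The shares of 5.82% and 6.65% are the background for called members of each list below. Higher genes made up 46.7% of the calls. With upper-quartile factors they made up 34.3%, and in limma on log2(TPM + 1) 27.0%. Because the wt clones differ in Dgcr8, each E518K clone was also set against each wt clone, which gives 4 clone pairs. Both E518K libraries lay above or below both wt libraries for 62.7% of all tested genes (31.4% higher and 31.3% lower). The same held for all 1999 called genes, which the test nearly requires with 2 libraries a group. A stricter group of 665 genes (4.15%) was at least 2-fold apart in all 4 pairs, 248 (1.55%) higher and 417 (2.6%) lower, and 485 of them were called. By contrast, 1184 of the 1849 genes that were 2-fold apart on average (64.0%) were not so in every pair.

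The wt clones stood further from each other than the E518K clones did. The median absolute log2 difference was 0.21 between the wt clones and 0.12 between the E518K clones, beside 0.28 between the groups. The wt clones were at least 2-fold apart in 1254 genes (7.83%) and the E518K clones in 441 (2.75%). Against wt clone 12, which had the lowest Dgcr8, 2374 genes differed at least 2-fold in E518K clone 8 and 2516 in E518K clone 15. Against wt clone 16 the numbers were 1594 and 1865. Leaving out 1 library at a time gave 216 calls when E518K clone 15 was missing and 636 when it was E518K clone 8. There were 3127 when wt clone 12 was missing and 5235 when it was wt clone 16. Of the 1999 calls, 202 (10.1%) were made in all 4 of these fits, 95 higher and 107 lower. A called gene named below is among them unless a lost call is stated. Among the called genes named below, limma at either TPM pseudocount did not call Lats2, Tnrc6a, Lamb1, Lama5, Zbtb38, Mat2a, Idi1 and Ddx58, and upper-quartile factors lost Pax6, Zbtb38 and Lama5. With either E518K clone left out, the spread comes from the wt pair alone. The log2 fold changes of 83 called genes named here moved by at most 1.25 times without E518K clone 8. Without E518K clone 15 they moved by at most 1.35 times. The largest move was 1.497 times without wt clone 12 and 1.529 times, in Pax6, without wt clone 16. The scale log2(TPM + 1) compresses low genes. On it, 17 of 72 called genes named here had log2 fold changes that moved by over 1.5 times, without a change of sign. These were Fbxo32, Tgfbi, Gc, Nt5e, Nanos3, Qprt, Ppp1r3b, Trim63, Bmp7, Lats2, P4ha2, Etv1, Lamb1, Evx1, Tgfb1, Cd3d and Cd3g.

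**Figure D1:**
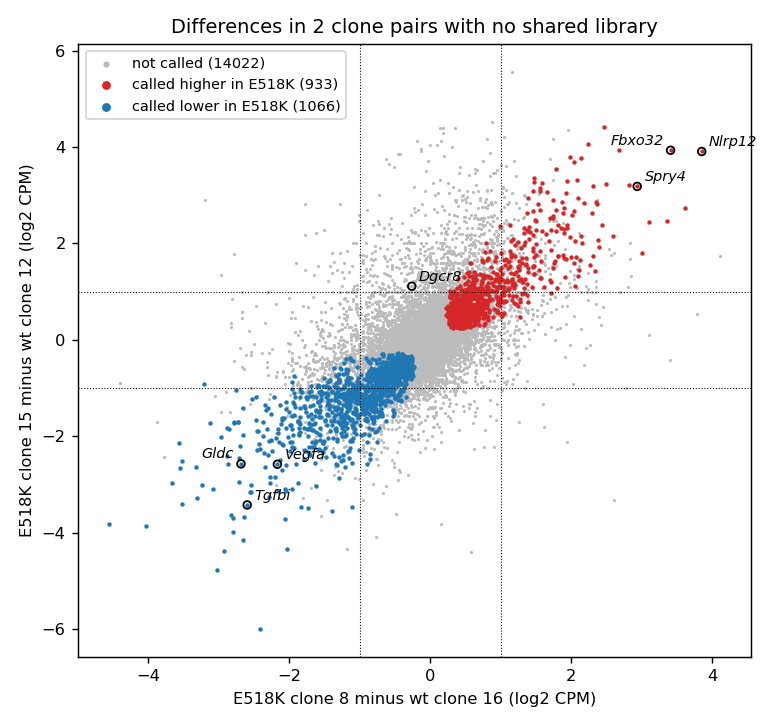
Each point is 1 of the 16021 tested genes, with the difference in log2 CPM between E518K clone 8 and wt clone 16 on the x axis and between E518K clone 15 and wt clone 12 on the y axis, which share no library. Red marks the 933 genes called higher and blue the 1066 called lower in E518K, the dotted lines mark 2-fold, and Dgcr8 lies on opposite sides of 0 in the 2 pairs.

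Of all genes called higher, Nlrp12 had the largest smallest difference over the 4 clone pairs. Its genomic span holds part of the miR-290 cluster. Nlrp12 is a gene of innate immune signalling (chromosome 7, 3218784 to 3249740, minus strand). The RefSeq table places the hairpins of Mir292, Mir292b, Mir291b, Mir293, Mir294 and Mir295 and the mature miRNAs of Mir291a inside this span. All but Mir292b lie on the opposite strand. The mature miRNAs below are shown because their shared seed, in capitals, defines the target sites discussed next (RefSeq, GRCm38.p6). The first 3 have the seed AAGUGCU and miR-291b-3p differs from them in the last seed base.

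miR-291a-3p, chr7:3218968-3218989, plus strand: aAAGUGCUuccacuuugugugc
miR-294-3p, chr7:3220691-3220712, plus strand: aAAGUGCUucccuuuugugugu
miR-295-3p, chr7:3220815-3220837, plus strand: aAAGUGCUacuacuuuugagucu
miR-291b-3p, chr7:3219529-3219550, plus strand: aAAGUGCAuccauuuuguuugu

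Counts over this span came to 12.5 CPM for wt clone 12 and 13.7 for wt clone 16, against 197 for E518K clone 8 and 188 for E518K clone 15. The level in both mutant clones was thus far above both wt clones, while clones of a kind nearly coincided. The log2 fold change was 3.88 ± 0.10 (edgeR adjusted p = 3.37e-05), and the weakest of the 4 pairs still differed by 3.78. The deposited counts behaved as reads over whole gene spans without regard to strand, so Nlrp12 transcripts and the unprocessed miR-290 transcript cannot be told apart here.

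Published targets of the miR-290 and miR-302 seed were called about as often as genes in general. Of 19 tested members 2 were called higher and 0 lower, beside 12.5% of all genes called and 5.82% called higher, with a median log2 fold change of -0.10 beside -0.01 over all tested genes. Lats2, a kinase of the Hippo pathway, had 7.27 and 7.55 CPM in wt and 11.7 and 13.3 in E518K, and rose by 0.75 ± 0.16 (adjusted p = 0.0295). The groups did not overlap, but the difference was under 2-fold. Leaving out either E518K library ended this call, with an adjusted p of 0.109 for clone 8 left out and 0.286 for clone 15. The cell-cycle inhibitor Cdkn1a stood at -0.36 ± 0.14 (adjusted p = 0.12).

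The 3′ UTRs of Lats2 and of Tnrc6a, a gene of the silencing machinery, each hold a match to bases 2 to 8 of the miR-291a-3p seed. One site of each is shown with the match AGCACTT in capitals, in the DNA alphabet and on the gene's strand (GENCODE M21 transcripts, GRCm38).

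Lats2 site, chr14:57699586-57699610, minus strand: cgtacccaaAGCACTTgctgctgcc
Tnrc6a site, chr7:123170009-123170033, plus strand: ttaaatccaAGCACTTtgaattcag

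Over all genes, those with such a site had a median close to that of the rest. Of 14597 tested genes with an annotated 3′ UTR, 2577 (17.7%) hold AGCACTT, and their median log2 fold change was 0.02 beside -0.02 for genes without it. The difference of 0.04 was 0.06 and 0.10 in E518K clones 8 and 15 against wt clone 12, and -0.03 and 0.02 in the same clones against wt clone 16. Between the wt clones, clone 16 against clone 12, it was 0.09. Genes with the site also had longer 3′ UTRs, with a median of 2607 bases against 1072, and the part of length in the difference was not tested. Among 16 seed families the difference ranged from -0.07 for miR-484 to 0.07 for miR-200b-3p.

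Within the miRNA machinery itself 1 of 18 tested genes was called. Tnrc6a, a GW182 protein that links Argonaute to the deadenylation of mRNA, had 59.2 and 71.0 CPM in wt and 103 and 113 in E518K and rose by 0.73 ± 0.11 (adjusted p = 0.0133, and 0.0825 without E518K clone 15). Drosha had 241 and 245 CPM in wt and 276 and 271 in E518K, a log2 fold change of 0.17 ± 0.08 (adjusted p = 0.174). Dicer1 stood at 0.13 ± 0.10 and Ago2, which overlaps Chrac1, at -0.10 ± 0.09. Lin28a, which blocks the maturation of let-7, stood at 0.05 ± 0.18 and Lin28b at 0.97 ± 0.35 (adjusted p = 0.873 and 0.113), the latter with 4.82 CPM in wt clone 12 against 11.3 in wt clone 16.

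Outside the miRNA pathway, increases that held in every clone pair were in genes of very different roles. Apart from the marker Fbxo32 and Evx1 of the mesoderm list, those given here are among the 15 called genes with the largest smallest pair difference at a mean log2 CPM of at least 1. Fbxo32, the substrate receptor of a ubiquitin ligase known from muscle wasting (chromosome 15, 58175879 to 58214932), had 0.404 and 0.607 CPM in wt and 6.70 and 6.55 in E518K. Its log2 fold change was 3.71 ± 0.29 (adjusted p = 0.003) and its weakest pair differed by 3.37, while on log2(TPM + 1) the difference was 0.95. Spry4, which dampens signals from receptor tyrosine kinases (chromosome 18, 38586247 to 38601415), had 4.50 and 3.92 CPM in wt and 30.1 and 41.1 in E518K, a change of 3.08 ± 0.19 (adjusted p = 0.00247). The homeobox gene Evx1 was near background in wt, at 0.148 and 0.317 CPM, and reached 2.17 and 2.64 in E518K (3.36 ± 0.44, adjusted p = 0.0092, and 1.66 on log2(TPM + 1)). Ubd, a ubiquitin-like modifier, rose by 2.47 ± 0.17, the vitamin D binding protein gene Gc by 2.49 ± 0.24, Nt5e, an ectonucleotidase, by 2.09 ± 0.18, and Nanos3, a gene of germ cell development, by 2.26 ± 0.31. Maml2, a Notch coactivator whose span overlaps Gm17571, rose by 2.44 ± 0.33 in the fit of 4 libraries and had an adjusted p of 0.0517 without E518K clone 15.

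Among decreases, Tgfbi, a secreted protein induced by TGF-beta (chromosome 13, 56609523 to 56639562), had 8.05 and 7.08 CPM in wt and 1.15 and 0.728 in E518K. It fell by 3.01 ± 0.29 (SE) on the log2 scale (adjusted p = 0.00416), or by 1.17 on log2(TPM + 1). Igfbp4, a binding protein of insulin-like growth factors, had 22.8 and 21.9 CPM in wt and 3.07 and 1.82 in E518K, a change of -3.19 ± 0.25 (adjusted p = 0.003). Gldc, the glycine decarboxylase of the glycine cleavage system (chromosome 19, 30098447 to 30175429), had 90.9 and 152 CPM in wt and 23.6 and 15.3 in E518K. Its change was -2.64 ± 0.29 (adjusted p = 0.00572), and without E518K clone 15 the adjusted p was 0.0763. Qprt, an enzyme of NAD synthesis, stood at -3.29 ± 0.40, Ppp1r3b, which targets a phosphatase to glycogen, at -2.29 ± 0.22, and the growth factor gene Bmp7 at -2.63 ± 0.28, all 3 called. On log2(TPM + 1), Qprt stood at -1.87, Ppp1r3b at -1.45 and Bmp7 at -1.12.

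**Figure D2:**
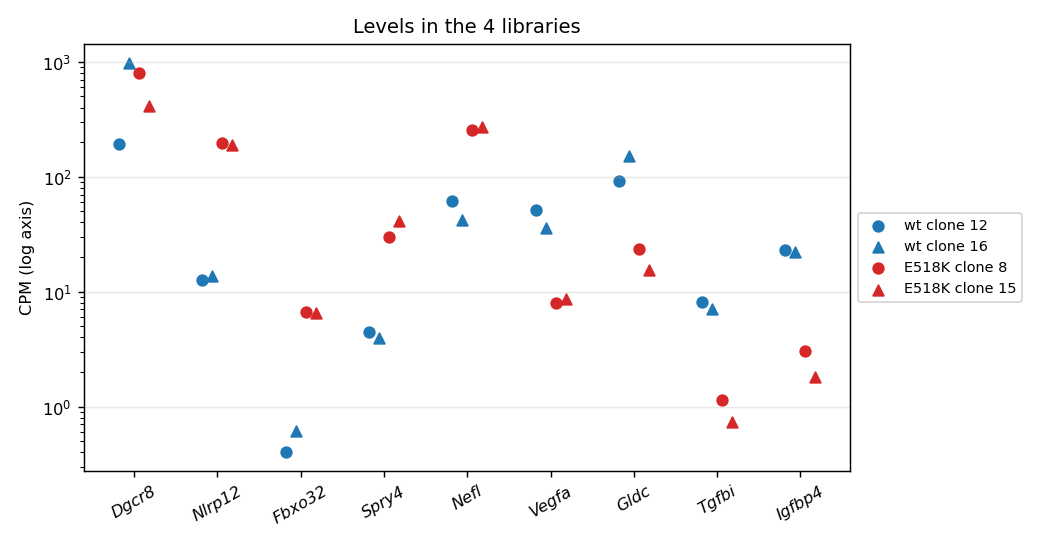
Levels of 9 genes in the 4 libraries, in CPM on a log axis, with wt in blue and E518K in red (circles for clones 12 and 8, triangles for clones 16 and 15). For Dgcr8 the mutant clones, at 807 and 413 CPM, lie between the wt clones, whereas for the other 8 genes the groups do not overlap.

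Most genes of glucose uptake and glycolysis were called lower in E518K. Of 22 tested members 17 were called lower and 0 higher (6.65% and 5.82% over all genes). In 21 both E518K clones were below both wt clones, beside 31.3% of all genes. The list's median log2 fold change was -0.69 beside -0.01 over all genes. The glucose transporter gene Slc2a1 had 629.9 and 488 CPM in wt and 270.1 and 277 in E518K (-1.03 ± 0.12, adjusted p = 0.00736). Pgk1, an ATP-generating enzyme of the pathway, had 1383 and 1106 CPM in wt and 626 and 623 in E518K (-0.996 ± 0.11, adjusted p = 0.00659). The phosphofructokinase gene Pfkp had 328 and 331 CPM in wt and 156 and 169.9 in E518K (-1.02 ± 0.08, adjusted p = 0.00315), and shares part of its span with Pitrm1. In these 3 genes the E518K clones had roughly equal levels.

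The median decrease depended more on which wt clone was used. More calls were lost in the fits without an E518K clone, where the spread comes from the wt pair alone. The median was -0.73 without E518K clone 8 and -0.61 without E518K clone 15. It was -0.47 without wt clone 12 and -0.82 without wt clone 16. Of the 17 calls, 8 were kept without E518K clone 8, 3 without E518K clone 15, and 16 without wt clone 12 or without wt clone 16. Slc2a3, the high-affinity glucose transporter, fell from 2815 and 2007 CPM to 993 and 1145 (-1.17 ± 0.16, adjusted p = 0.00982), and had an adjusted p of 0.0544 without E518K clone 8 and 0.0632 without clone 15. Pfkl, the liver-type phosphofructokinase, stood at -1.22 ± 0.16 (adjusted p = 0.00901, and 0.0718 without E518K clone 15). The list also differed between the wt clones, with a median of -0.29 in clone 16 against clone 12.

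In the list of hypoxia-inducible factors, their oxygen sensors and their targets, 10 of 21 tested genes were called lower and 0 higher. Over all genes 6.65% were called lower and 5.82% higher. In 12 members both E518K clones were below both wt clones, and in 2 above (31.3% and 31.4% over all genes). The list's median was -0.59. The calls were of sensors and targets, and the factor genes Hif1a and Epas1 stood at 0.07 ± 0.10 and 0.10 ± 0.15 (adjusted p = 0.679 and 0.702). Vegfa, which drives blood vessel growth (chromosome 17, 46016993 to 46032369), had 51.3 and 36.1 CPM in wt and 8.01 and 8.57 in E518K (-2.40 ± 0.19, adjusted p = 0.00297). Ddit4, an inhibitor of mTOR signalling, had 111 and 92.1 CPM in wt and 26.6 and 22.7 in E518K (-2.04 ± 0.13, adjusted p = 0.00247). The collagen prolyl hydroxylase gene P4ha2 had 8.48 and 8.25 CPM in wt and 1.98 and 2.39 in E518K (-1.94 ± 0.21, adjusted p = 0.00572, and -0.95 on log2(TPM + 1)). All 3 were lower in both E518K clones by a wide margin.

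Egln3 and Egln1, the oxygen sensors that mark these factors for degradation, stood at -1.09 ± 0.11 and -1.20 ± 0.16 (adjusted p = 0.00499 and 0.00978), and Egln1 had 0.0633 without E518K clone 15. Of the 10 calls, 7 were kept without E518K clone 8 and 4 without E518K clone 15. Among ligands and receptors of blood vessel growth, the receptor gene Kdr moved the other way. Its level was 0.108 and 0.211 CPM in wt and 0.982 and 1.32 in E518K (2.84 ± 0.50, adjusted p = 0.0182, and 0.0505 and 0.16 without E518K clones 8 and 15).

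**Figure D3:**
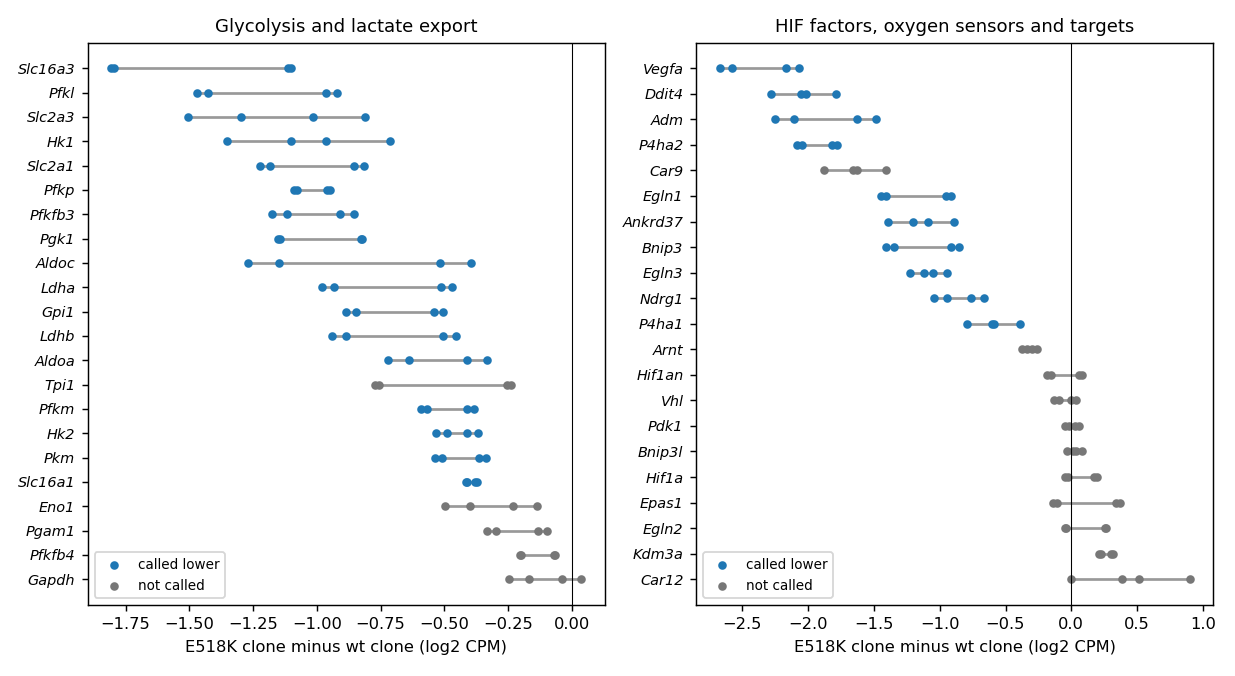
Differences in log2 CPM for each tested gene of glycolysis (left) and of the hypoxia-inducible factors, oxygen sensors and targets (right), with 1 point for each of the 4 pairs of an E518K and a wt clone and a line over their range. Blue marks the 17 and 10 genes called lower and grey the genes not called, and all 4 points of 21 of the 22 glycolysis genes lie below 0.

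Promoters of these 2 groups often held ACGTG, the core recognised by hypoxia-inducible factors. The hypoxia list was itself chosen to hold targets of these factors, so a high share there follows in part from that choice. Whether the motif goes with the decrease was not tested. The letters were searched on both strands in 300 bases, 250 before and 50 after each start site (RefSeq, GRCm38.p6). Of 11373 tested genes with an entry 27.9% held it, as did 19.6% of all entries of the table. The share was 14 of 21 (66.7%) for glycolysis and 11 of 18 (61.1%) for the hypoxia list. It was 29.4% for all genes called lower and 28.1% for all genes called higher. Of the members called lower it was 12 of 16 (75%) for glycolysis and 8 of 9 (88.9%) for the hypoxia list. In other lists the share was 7 of 12 (58.3%) for the IGF system, with 8 calls, and 9 of 15 (60%) for G1 and S phase regulators, with 5. For germline genes sensitive to methylation, with 1 call, it was 10 of 13 (76.9%). The letters are also part of CACGTG, which other factors bind, and a match is not evidence of binding. The windows of Pgk1, Ldha and Ddit4 are shown, with ACGTG and its reverse complement CACGT in capitals, and Ldha was picked for its number of matches. Ldha, a lactate dehydrogenase gene, was called lower but not without E518K clone 8 or 15 (adjusted p = 0.119 and 0.161). Its window holds the palindrome CACGTG, which counts on each strand, and has 5 matches, against 2 in Pgk1 and 1 in Ddit4.

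Pgk1 promoter, chrX:106186850-106187149, plus strand: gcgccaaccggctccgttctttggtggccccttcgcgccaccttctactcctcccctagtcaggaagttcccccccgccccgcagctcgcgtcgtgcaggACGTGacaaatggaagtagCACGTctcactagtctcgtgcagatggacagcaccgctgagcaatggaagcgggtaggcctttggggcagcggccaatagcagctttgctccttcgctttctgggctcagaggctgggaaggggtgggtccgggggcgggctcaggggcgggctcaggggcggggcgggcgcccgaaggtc
Ldha promoter, chr7:46845554-46845853, plus strand: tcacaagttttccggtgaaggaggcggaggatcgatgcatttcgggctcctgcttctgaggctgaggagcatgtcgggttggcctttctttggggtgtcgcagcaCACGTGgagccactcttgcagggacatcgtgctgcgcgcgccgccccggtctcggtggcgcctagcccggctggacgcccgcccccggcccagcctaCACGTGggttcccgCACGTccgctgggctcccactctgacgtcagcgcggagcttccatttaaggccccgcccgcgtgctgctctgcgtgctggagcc
Ddit4 promoter, chr10:59951721-59952020, minus strand: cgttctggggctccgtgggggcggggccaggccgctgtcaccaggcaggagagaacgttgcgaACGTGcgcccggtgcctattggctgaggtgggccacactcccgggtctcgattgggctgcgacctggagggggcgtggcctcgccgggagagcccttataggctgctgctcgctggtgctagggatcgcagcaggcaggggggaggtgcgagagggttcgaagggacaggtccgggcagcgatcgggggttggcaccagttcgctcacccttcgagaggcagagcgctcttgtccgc

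The insulin-like growth factor system was lower as well. Of 14 tested genes 8 were called lower and 0 higher (6.65% and 5.82% over all genes). In 9 both E518K clones were below both wt clones, and in 3 above (31.3% and 31.4% over all genes). The median was -0.87, or -0.42 on log2(TPM + 1). Igfbp2, the most abundant binding protein, had 1003 and 843 CPM in wt and 352 and 309 in E518K (-1.48 ± 0.11, adjusted p = 0.00297). Igf2r, the receptor that clears IGF2, had 114 and 95.7 CPM in wt and 49.4 and 42.9 in E518K (-1.18 ± 0.12, adjusted p = 0.00494). As in every called gene, the groups did not overlap in either. The insulin receptor gene Insr stood at -1.18 ± 0.17 and Igf2bp3, which binds IGF2 mRNA and overlaps Malsu1, at -0.67 ± 0.08 (adjusted p = 0.0112 and 0.00797, and 0.088 and 0.067 without E518K clone 15). The ligand gene Igf2, at only 2.03 and 2.19 CPM in wt and 0.819 and 0.580 in E518K, stood at -1.59 ± 0.33 (adjusted p = 0.028, and 0.103 and 0.283 without E518K clones 8 and 15). With Igfbp4, 3 of the 8 calls were kept in all 4 fits without 1 library.

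Igf2 and Igf2r are also imprinted, and 4 of 14 tested imprinted genes were called lower and 1 higher. Phlda2, which limits placental growth, had 9.61 and 8.94 CPM in wt and 2.27 and 2.04 in E518K (-2.11 ± 0.20, adjusted p = 0.00401). Peg10 stood at -1.67 ± 0.24 (adjusted p = 0.0104, and 0.0564 without E518K clone 15). Among FOXO factors and targets, which lie downstream of insulin signalling, 2 of 18 were called higher and 6 lower. Fbxo32 rose, as given above, and Trim63, the other ubiquitin ligase known from muscle wasting, moved in the opposite direction. Trim63 had 6.91 and 7.0 CPM in wt and 1.54 and 0.768 in E518K (-2.59 ± 0.35, adjusted p = 0.00946). Pdk4, which restrains pyruvate oxidation, stood at -1.66 ± 0.20 (adjusted p = 0.00764, and 0.0515 without E518K clone 15).

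Of 18 tested basement membrane and matrix genes 6 were called lower and 1 higher (6.65% and 5.82% over all genes). In 12 both E518K clones were below both wt clones, and in 3 above (31.3% and 31.4% over all genes). The median was -0.37. Besides Tgfbi, Loxl2, an enzyme that crosslinks collagen, had 10.4 and 10.7 CPM in wt and 2.33 and 2.52 in E518K (-2.12 ± 0.19, adjusted p = 0.00362). The laminin chain gene Lamb1 had 14.4 and 20.1 CPM in wt and 8.71 and 7.68 in E518K (-1.07 ± 0.20, adjusted p = 0.0205, and 0.132 without E518K clone 15). Lama5, another laminin chain, was the member called higher (0.38 ± 0.08, adjusted p = 0.0302, and 0.222 and 0.221 without E518K clones 8 and 15). In the list of TGF-beta ligands, receptors and targets 3 of 21 were called lower, among them Tgfb1 with -1.10 ± 0.25 and the receptor gene Acvr1b with -0.66 ± 0.12. Both lost the call without either E518K clone (adjusted p of 0.168 and 0.325 for Tgfb1, and 0.0543 and 0.137 for Acvr1b, without clones 8 and 15).

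Of 18 tested genes of receptor tyrosine kinase and MAPK feedback 4 were called higher and 1 lower (5.82% and 6.65% over all genes). The median, however, was -0.08, and the groups were apart upwards in 7 and downwards in 8 (31.4% and 31.3% over all genes). Besides Spry4, the ETS factor gene Etv1 had 17.6 and 15.5 CPM in wt and 34.3 and 41.0 in E518K (1.19 ± 0.14, adjusted p = 0.00695). Myc, a driver of growth, stood at 0.73 ± 0.15 and the immediate early gene Fos at -2.19 ± 0.33 (adjusted p = 0.0251 and 0.012). Without E518K clones 8 and 15 the adjusted p was 0.0508 and 0.229 for Myc and 0.0661 and 0.119 for Fos. MEK was inhibited in all cultures.

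In the Wnt list 3 of 16 genes were called higher and 0 lower (5.82% and 6.65% over all genes), with a median of 0.22. Notum, a secreted enzyme that inactivates Wnt ligands, had 70.6 and 68.7 CPM in wt and 231 and 212 in E518K (1.67 ± 0.09, adjusted p = 0.00206). Sp5, a transcription factor induced by Wnt signalling, had 17.8 and 16.8 CPM in wt and 54.3 and 42.0 in E518K (1.48 ± 0.15, adjusted p = 0.00466). Clones of a kind were close and the groups far apart in both genes. Among regulators of G1 and S phase 3 of 20 were called higher and 2 lower. The cyclin gene Ccnd1 had 197 and 178 CPM in wt and 343 and 297 in E518K (0.77 ± 0.10, adjusted p = 0.00934), and overlaps Oraov1. Ccne1 stood at 0.64 ± 0.08 (adjusted p = 0.00943, and 0.0796 without E518K clone 15) and E2f1 at -0.51 ± 0.09 (adjusted p = 0.0195, and 0.0826 and 0.193 without E518K clones 8 and 15).

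Part of the amino acid stress response was lower and part of the chaperones of the endoplasmic reticulum higher. Of 15 genes under ATF4, a factor induced by amino acid shortage, 9 were called lower and 0 higher (6.65% and 5.82% over all genes). The median was -0.48. Chac1, which degrades glutathione, had 24.2 and 21.7 CPM in wt and 8.38 and 9.19 in E518K (-1.39 ± 0.14, adjusted p = 0.00494). Vldlr, a lipoprotein receptor, had 5.55 and 6.92 CPM in wt and 1.38 and 2.08 in E518K (-1.85 ± 0.28, adjusted p = 0.0127). Ddit4 belongs to this list and to the hypoxia list. Of the 9 calls, 3 were kept without E518K clone 8 and 3 without clone 15.

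Of 14 chaperone genes 5 were called higher and 0 lower, with a median of 0.29, but 3 with upper-quartile factors, 1 with limma on log2(TPM + 1) and 0 in all 4 fits without 1 library. Hspa5, the main chaperone of this compartment, had 465 and 433 CPM in wt and 672 and 696 in E518K (0.61 ± 0.08, adjusted p = 0.0091, and 0.0716 without E518K clone 15). In glycine, serine and one-carbon metabolism 2 of 16 were called higher and 2 lower. Phgdh, which opens serine synthesis, stood at -0.98 ± 0.16 beside the fall of Gldc, and Mat2a, which makes S-adenosylmethionine, at 0.59 ± 0.10 (adjusted p = 0.0148 and 0.0185). Without E518K clone 15 the adjusted p was 0.0627 for Phgdh and 0.096 for Mat2a, and without clone 8 it was 0.073 for Mat2a.

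Lipid and lysosome genes were lower in part. Of 20 genes of cholesterol and fatty acid synthesis 6 were called lower and 1 higher, with a median of -0.27. The desaturase gene Scd1 had 388 and 337 CPM in wt and 199 and 214 in E518K (-0.81 ± 0.10, adjusted p = 0.00732), whereas Idi1, an enzyme of isoprenoid synthesis, rose by 0.97 ± 0.16 (adjusted p = 0.0148, and 0.0568 without E518K clone 15). Of 20 lysosome and autophagy genes 7 were called lower and 3 higher. The protease gene Ctsl had 182 and 199 CPM in wt and 106 and 102 in E518K (-0.87 ± 0.09, adjusted p = 0.00479). Tfeb and Tfe3, transcription factors of lysosome genes, stood at 0.76 ± 0.12 and 0.60 ± 0.08 (adjusted p = 0.0143 and 0.0104, and 0.0769 and 0.0644 without E518K clone 15). Tfe3 had 0.0661 without E518K clone 8. Of 13 transcripts of the mitochondrial genome 4 were called higher and 0 lower, such as mt-Nd1, a subunit of complex I, at 0.56 ± 0.07 (adjusted p = 0.00886, and 0.0825 without E518K clone 15).

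Both groups had the markers of embryonic stem cells. The 9 tested markers summed to between 5273 and 6105 CPM in the 4 libraries, and 1 was called higher. Nanog had 705 and 612 CPM in wt and 712 and 743 in E518K (0.14 ± 0.09, adjusted p = 0.33), and Sox2 stood at -0.15 ± 0.09 (adjusted p = 0.274). Of 17 core and naive pluripotency genes 1 was called higher and 2 lower, with a median of -0.09. In the formative and primed list 3 of 14 were called higher and 3 lower, and only its member Dnmt3b kept the call in all 4 fits without 1 library.

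Dnmt3b, a de novo DNA methyltransferase, had 58.9 and 75.9 CPM in wt and 161 and 139 in E518K (1.15 ± 0.14, adjusted p = 0.00744). Its cofactor Dnmt3l moved the other way, from 91.5 and 143 CPM to 39.9 and 40.3 (-1.55 ± 0.20, adjusted p = 0.00856, and 0.0686 and 0.102 without E518K clones 8 and 15). Dnmt3l overlaps Aire, an autoimmune regulator gene called lower by -2.53 ± 0.26, so reads of either can count for both. The other calls among 13 genes of DNA methylation and TET were Tet3 at -0.83 ± 0.18, Mbd1 at -0.76 ± 0.11 and Zbtb38 at 0.66 ± 0.17. None of these 3 kept the call without E518K clone 15 (adjusted p = 0.203, 0.112 and 0.291), nor did Tet3 and Zbtb38 without clone 8 (0.204 and 0.105).

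Of 11 tested genes of the neural lineage 5 were called higher and 0 lower (5.82% and 6.65% over all genes). The median was 0.51. The neurofilament genes Nefl and Nefm lie side by side and overlap, so they can share reads. Nefl had 61 and 42.4 CPM in wt and 255 and 270.5 in E518K (2.34 ± 0.17, adjusted p = 0.00263), and Nefm had 78.9 and 57.4 CPM in wt and 298 and 332 in E518K (2.21 ± 0.16, adjusted p = 0.00263). Nefh, on another chromosome, stood at 1.17 ± 0.19 (adjusted p = 0.0155, and 0.0837 without E518K clone 15). The neural regulator Pax6 reached only 1.15 and 1.35 CPM in E518K (2.30 ± 0.59, adjusted p = 0.0489, and 0.14 and 0.267 without E518K clones 8 and 15), and its change was 3.51 without wt clone 16. In bulk RNA, more cells of a kind and more RNA per cell cannot be told apart.

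In the primitive streak and mesoderm list 2 of 10 tested genes were called higher, Evx1 and Kdr, and 0 lower. Of 12 trophectoderm genes 3 were called lower, of 13 primitive endoderm genes 3, beside 6.65% of all genes called lower, and 0 were called higher in either list. No call of these 2 lists was made in all 4 fits without 1 library. The streak list summed to 35.4 and 40.6 CPM in wt and 43.2 and 47.3 in E518K. Ascl2, a trophoblast factor, stood at -1.09 ± 0.20 (adjusted p = 0.0211, and 0.156 without E518K clone 15). Of 8 fibroblast and feeder markers 1 was called lower. Their sum was 135 and 119 CPM in wt and 139 and 117 in E518K. The highest member reached 133 CPM, whereas Col1a1, the defining collagen gene, was at most 1.77 CPM. In the list of epithelial and mesenchymal genes 1 of 15 was called higher and 2 lower, and the intermediate filament gene Vim had 189.8 and 159.6 CPM in wt and 327 and 334 in E518K (0.92 ± 0.10, adjusted p = 0.00608). Genes that mark a state like that of the embryo with 2 cells differed between the wt clones, with a median of 3.21 in clone 16 against clone 12, and 1 of 7 was called.

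Of 9 tested genes of nephron progenitors and Wilms tumours 3 were called higher and 2 lower. Sall1, a zinc finger factor of kidney development, had 139.6 and 146 CPM in wt and 251 and 248 in E518K (0.80 ± 0.08, adjusted p = 0.00452). Wt1, a tumour suppressor of the kidney, stayed under 1 CPM in every library (2.40 ± 0.59, adjusted p = 0.0436, and 0.141 and 0.271 without E518K clones 8 and 15). Eya1, a transcription cofactor of kidney development, and Igf2 were the members called lower, Eya1 by -0.60 ± 0.15 (adjusted p = 0.0474, and 0.051, 0.28 and 0.289 without wt clone 12 and E518K clones 8 and 15). Without E518K clone 15 only Sall1 kept its call.

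Of 19 tested interferon and RNA sensing genes 7 were called higher and 0 lower (5.82% and 6.65% over all genes). In 14 both E518K clones were above both wt clones, and in 2 below (31.4% and 31.3% over all genes). The median was 0.45. DESeq2 called 8 higher and 1 lower, and limma on log2(TPM + 1), which kept 15 members, called 5 higher and 1 lower. The listed genes Ifih1, Isg15, Ifit1, Ifit2 and Ifit3 had too few reads to be tested. Ifitm3, which blocks viral entry, had 101 and 102 CPM in wt and 173 and 174 in E518K (0.77 ± 0.08, adjusted p = 0.00494). Ddx58, the sensor RIG-I, had 31.6 and 49.5 CPM in wt and 82.8 and 97.4 in E518K (1.15 ± 0.20, adjusted p = 0.0185, and 0.0722 and 0.169 without E518K clones 8 and 15). As in every called gene, the groups did not overlap in these 2. Without 1 library at a time, Ifitm3 was the member that kept its call in all 4 fits.

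Of 12 tested lymphocyte and blood markers 5 were called higher and 0 lower (5.82% and 6.65% over all genes). The groups were apart upwards in 6 and downwards in 3 (31.4% and 31.3% over all genes). With limma on log2(TPM + 1), which kept 7 of them, 3 were called higher and 2 lower, and the median of 0.45 became -0.01. Cd3e, a chain of the T cell receptor complex, had 1.99 and 2.64 CPM in wt and 8.30 and 9.18 in E518K (1.91 ± 0.22, adjusted p = 0.00706). The Fc receptor gene Fcgr2b had 0.337 and 0.277 CPM in wt and 2.59 and 1.94 in E518K (2.88 ± 0.36, adjusted p = 0.00839). Cd3d and Cd3g, the neighbouring chains, stood at 3.03 ± 0.47 and 2.37 ± 0.38 (adjusted p = 0.013 and 0.0143, and 0.0894 and 0.124 without E518K clone 15). Other defining markers, such as Ptprc, Cd8a, Ms4a1 and Hba-a1, had too few reads to be tested. The summed list, in which Laptm5 dominates, was 355 and 365 CPM in wt and 351 and 374 in E518K.

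**Figure D4:**
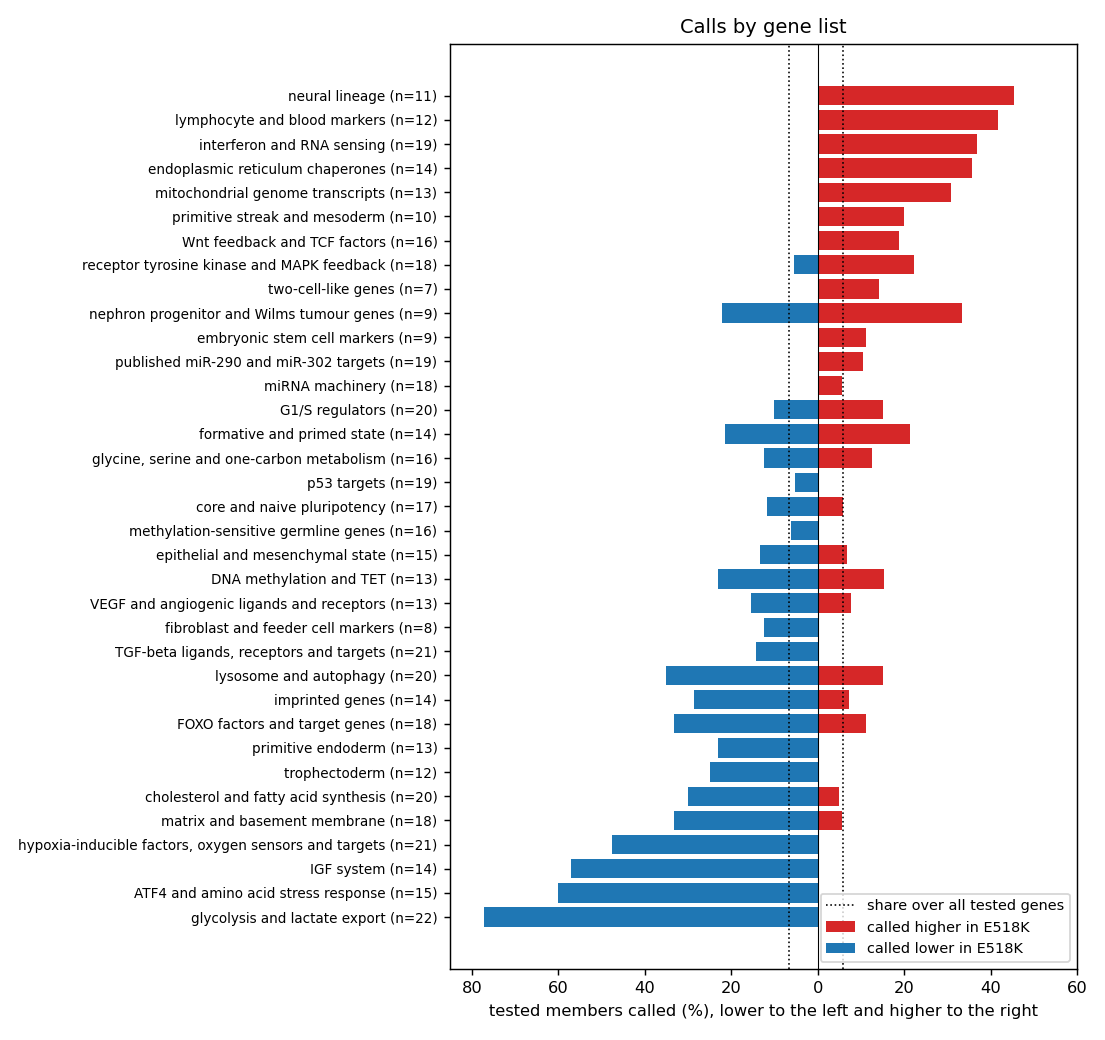
Share of tested members called higher (red, to the right) and lower (blue, to the left) in E518K for each of the 35 gene lists, with the number tested in brackets. The dotted lines give the shares over all tested genes, 5.82% and 6.65%, and glycolysis has the longest bar, with 17 of 22 called lower.

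Some genes differed more between the wt clones than between the groups. By the rule that took the 6 largest gaps between wt clones among well expressed genes, these were Dgcr8, Clca3b, Lef1, S100a13, Sox4 and Hilpda, and none was called. Lef1, a Wnt effector, had 3.02 CPM in wt clone 12 and 13.6 in wt clone 16, with 12.9 and 9.61 in E518K (0.44 ± 0.58, adjusted p = 0.644). Hilpda, a lipid droplet protein induced by hypoxia, was at 7.55 CPM in wt clone 12 and 24.9 in wt clone 16, with 9.07 and 8.05 in E518K. Sox4, a developmental transcription factor, was low in wt clone 12 and E518K clone 15 (7.16 and 4.74 CPM) and high in wt clone 16 and E518K clone 8 (26.2 and 31.7). S100a13, a calcium-binding protein gene, was at 56.1 CPM in wt clone 12 alone, against 14 in wt clone 16, and 11.1 and 14 in E518K.

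**Figure D5:**
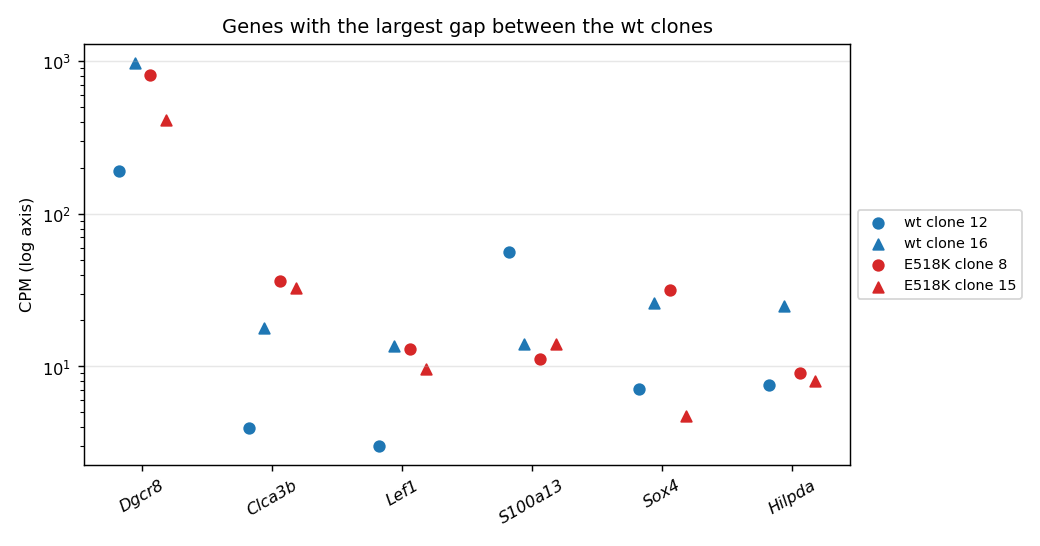
Levels of the 6 genes with the largest gap between the wt clones, in CPM on a log axis, with wt in blue and E518K in red (circles for clones 12 and 8, triangles for clones 16 and 15). For Lef1, wt clone 12 at 3.02 CPM lies below the other 3 libraries, and for S100a13 at 56.1 CPM above them.

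In 579 genes (3.61%) the 4 libraries ranked as they do for Dgcr8, with wt clone 12 lowest, then E518K clone 15, E518K clone 8 and wt clone 16, and in 446 (2.78%) they ranked in reverse. Both E518K clones lay between the wt clones in 2156 genes (13.5%). Whether these shares exceed those of other orders of the 4 libraries was not tested. With 1 library at each level of Dgcr8, an effect of its amount and an effect of the clone cannot be told apart.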

How the data were processed

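Poly(A)-selected RNA of mouse embryonic stem cell clones was sequenced on a BGISEQ-500 as paired ends, per the labels' protocols. The authors deposited a table of counts per gene and library, and a second table of TPM for the same libraries. The submitters' processing notes list STAR, bedtools and the build GRCm38.p6. How each tool was set, and the counting rule, were not given in the sources used here. Checked against gene models, the ratio of deposited counts to TPM followed the length of the whole gene span within 5% for 98.4% of 15044 genes. That gives the length behind the TPM, not which reads were counted. Outer genes held at least the reads of genes nested on the opposite strand in 98.9% of 272 pairs. By this check of nested pairs, counts behave as reads over the span, introns included, on both strands, and overlapping genes share reads. Symbols were matched to GENCODE M21 for 19808 of 21978 entries, and 3530 overlap another gene. The table held 0 sample columns of unknown origin.

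The 4 libraries were fitted with edgeR 4.0.16 in R 4.3.3 (TMM, filterByExpr with a minimum count of 10, robust quasi-likelihood test, Benjamini-Hochberg adjustment over all 16021 tested genes). Clone-pair differences are of log2 CPM with a prior count of 2. With 2 libraries a group there were 2 residual degrees of freedom, beside a median of 4.99 prior degrees of freedom borrowed from other genes. The p-values thus rest on the spread between these clones, pooled in part over genes. edgeR's common biological coefficient of variation was 15.1%, with 20.4% from the wt clones alone and 9.16% from the E518K clones alone. The script was tested on simulated data. Alternatives were other normalization factors, DESeq2 1.42.0, limma 3.58.1 on log2(TPM + 1) and log2(TPM + 0.1), other filters, the fit of all 6 libraries, genes without overlap, and each library left out in turn. The gene lists, members and markers were chosen with earlier results of these data known.

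Named genes were the 5 given markers, the machinery list, the 15 called genes at each end by the smallest clone-pair difference with a mean log2 CPM of at least 1, up to 5 members of each list by p, and the 6 genes with the widest gap between wt clones with a mean log2 CPM of at least 3. Predicted gene models were passed over, and some genes that the rule gave are not reported here. Evx1 and other members below that level come from the lists. Hif1a, Epas1, Ldha and Laptm5 fall outside the rule and were chosen after their values were seen.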

Additional observations from a re-analysis of the deposited data

How the results depend on the processing

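The number of called genes, 1999, became 3173 with DESeq2, 1269 and 1227 with limma on log2(TPM + 1) and log2(TPM + 0.1), and 3917 in the fit of all 6 libraries. With 1 library left out it ranged from 216 to 5235. The number called at 2-fold or more, 773, became 234 and 438 with limma at the pseudocounts of 1 and 0.1, and ranged from 161 to 1698 with 1 library left out. The number of genes 2-fold apart in all 4 clone pairs, 665, became 119 on log2(TPM + 1) and ranged from 995 to 1810 when a left-out library reduced the pairs to 2. Higher genes, 46.7% of the calls, were 26.5% with limma on log2(TPM + 0.1). Of the genes not called, Dgcr8 changed sign and ranged from -0.66 to 1.68 with 1 library left out. Lin28a went to -0.0095 with upper-quartile factors and to -0.0101 and -0.0098 with limma, and ranged from -0.18 to 0.32 with 1 library left out. The same range was -0.27 to 1.90 for Lef1, -1.82 to 1.34 for Sox4 and -1.54 to 0.18 for Hilpda. Sox4 went to -0.20 and -0.23 with limma. The median of the machinery list, 0.08, was -0.01 without wt clone 12. Of 141 called genes that the naming rule gave, 92 were not called with E518K clone 15 left out, 57 with E518K clone 8 left out, 6 with wt clone 12 left out and 4 with wt clone 16 left out. For the called genes named in the text, the median move of the log2 fold change in the fits without an E518K clone was 1.06 times. Upper-quartile factors ended 6 calls, and limma on log2(TPM + 1) ended 25 of 124. None of the 141 changed sign in any of these settings. With 1 library left out the sign was nearly fixed in advance, since the groups of called genes do not overlap. The causes of the other shifts were not tested. In the fits without 1 library the lone clone is assumed to vary like the other group's. No paired analysis was possible because the groups share no replicate numbers (clones 12 and 16 against 8 and 15). At 73642784 counts or more per library the number of clones, not depth, limits the precision, except for genes near 1 CPM.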

Other observations

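The 2 gene families below lie outside the lists and were chosen after their values were seen. Of 24 tested genes with symbols in H2-, the name of the mouse MHC, 5 were called lower and 2 higher (6.65% and 5.82% over all genes), with a median log2 fold change of -0.44. Not all of them present antigen. The class II gene H2-Eb1 had 17.9 CPM in wt clone 12 and 32.8 in wt clone 16, against 2.84 in E518K clone 8 and 3.10 in E518K clone 15 (-3.09 ± 0.30, edgeR adjusted p = 0.00424). Its neighbour H2-Ab1 stood at -3.54 and the class I gene H2-K1 at -1.39. H2-T3 and H2-M5 were the members called higher, but H2-T3 had an adjusted p of 0.0689 without E518K clone 15 and H2-M5 of 0.0617 without E518K clone 8.

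The Duxbl genes, 3 near-identical copies of a homeobox gene that can share reads, were called higher by 1.84 to 2.15.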
